A study of Mus musculus with 19 samples.

Results

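Immediate-early genes were followed through the whole-lung RNA of mice with chronic allergic airway inflammation. The 10 genes are Fos, Fosb, Jun, Junb, Jund, Egr1, Ier2, Dusp1, Nr4a1 and Atf3. They were taken by gene symbol from a deposited table of read counts, in which all 10 symbols were present among 49585 genes. All 10 also passed the filter on low counts, as did 14495 genes of the whole table. The members were chosen by name with levels and fold changes of these same libraries in view, so these values are given as a description and carry no p-value.

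The study asked how the loss of 1 copy of Has2, which encodes a synthase of the matrix polymer hyaluronan, alters the lung under chronic exposure to ovalbumin (OVA). The groups were Has2+/- OVA (5 libraries), WT OVA (5), Has2+/- saline (4) and WT saline (5), all whole-lung homogenates of female Balb/c mice that entered the experiment at 6 to 8 weeks of age. OVA mice were sensitised with intraperitoneal OVA in alum and then given intranasal OVA on 5 days a week for 8 weeks, and their lungs were taken 24 h after the last challenge, whereas control mice received saline. Has2+/- mice were heterozygous for a deletion of Has2 on a backcrossed line, with no restriction to a cell type named in the sources used here.

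Total counts ran from 4446534 to 7048676 per library (median 5493263). The lung label was checked with 9 epithelial genes, surfactant genes among them, which all had counts in every group and summed to between 21304 and 29997 CPM (read counts scaled to a common library size with TMM factors). Reads of Has2 numbered 3 to 9 per library in Has2+/- OVA, 2 to 10 in WT OVA, 2 to 7 in Has2+/- saline and 1 to 4 in WT saline, too few to check the genotype labels. Column names gave the group of a library and not the mouse, so libraries are called by their running number. These are 15 to 19 for Has2+/- OVA, 10 to 14 for WT OVA, 6 to 9 for Has2+/- saline and 1 to 5 for WT saline. The methods give a range for the number of lungs per group that matches the libraries, and each library was read as the lung of 1 mouse.

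Immediate-early genes are transcribed within minutes of a stimulus, from factors that already sit in the cell, and their mRNAs decay quickly. Growth factors, cytokines, stretch and stress reach them through MAP kinases, which act on serum response factor and its partners at CArG boxes and on CREB and ATF factors at cyclic AMP response elements (CRE). Fos and Jun proteins pair to form AP-1, which binds the promoters of later genes. In the lung they respond to stretch, injury and inflammation in epithelial, vascular and immune cells alike.

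The promoter stretches of 6 members are printed because most share a short CRE-type motif, TGACG, and Jun serves as a contrast that lacks these exact letters. Jun does hold tgacatca, which is close to the full palindrome TGACGTCA. Sequences are from RefSeq on GRCm38.p6 (mm10), 5′ to 3′ on the strand of the gene, and capitals mark TGACG or its reverse complement. They cover 150 bases before the start site, shortened for Fosb and Dusp1 where the deposited gene begins earlier. The stretches are chr12:85473740-85473889 (plus strand) for Fos, chr7:19310052-19310195 (minus strand) for Fosb, chr8:84978749-84978898 (minus strand) for Junb, chr15:101266696-101266845 (plus strand) for Nr4a1, chr17:26508520-26508622 (minus strand) for Dusp1 and chr4:95052223-95052372 (minus strand) for Jun.
Fos: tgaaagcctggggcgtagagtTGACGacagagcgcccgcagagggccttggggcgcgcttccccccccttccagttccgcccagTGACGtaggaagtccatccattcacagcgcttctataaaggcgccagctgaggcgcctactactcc
Fosb: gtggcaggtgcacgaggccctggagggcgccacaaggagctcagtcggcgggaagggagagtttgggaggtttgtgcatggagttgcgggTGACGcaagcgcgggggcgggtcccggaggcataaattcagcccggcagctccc
Junb: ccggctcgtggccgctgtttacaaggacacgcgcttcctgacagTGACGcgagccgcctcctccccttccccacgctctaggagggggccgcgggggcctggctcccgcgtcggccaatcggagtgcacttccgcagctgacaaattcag
Nr4a1: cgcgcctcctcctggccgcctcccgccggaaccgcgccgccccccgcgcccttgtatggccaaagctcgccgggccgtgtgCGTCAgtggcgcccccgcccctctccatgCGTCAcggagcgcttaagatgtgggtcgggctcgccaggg
Dusp1: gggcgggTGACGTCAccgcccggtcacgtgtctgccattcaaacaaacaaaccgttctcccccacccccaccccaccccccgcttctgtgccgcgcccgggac
Jun: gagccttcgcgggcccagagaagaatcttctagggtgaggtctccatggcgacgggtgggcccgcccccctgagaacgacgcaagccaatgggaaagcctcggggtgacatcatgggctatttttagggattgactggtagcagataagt

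Of the 8 members in the RefSeq promoter table, 6 held TGACG on either strand within 250 bases before the start (Fos, Fosb, Junb, Dusp1, Nr4a1 and Atf3), against 17.8% of 32851 promoters. The full palindrome TGACGTCA, which overlaps the shorter motif, was found in 1 (Dusp1), against 1.55% of promoters. GCGGGGGCG, the letters bound by Egr proteins, was found in 2 (Fosb and Nr4a1), against 2.57%. The GC box GGGCGG was found in 6, against 32.7%, and can overlap the Egr letters. CCAAT was found in 2 (Jun and Junb), against 33.8%, and TATAAA in 1 (Fos), against 12.4%. The CArG box and the AP-1 letters TGACTCA were found in 0 of 8, against 1.47% and 4.46%, which says only that these letters are not in this window. The windows of Fosb, Junb, Jund, Dusp1 and Atf3 lie before a start site other than the deposited start of the gene. For Junb, on the minus strand, the printed stretch stops at 84978749 and the deposited gene begins at 84978718.

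**Figure D1:**
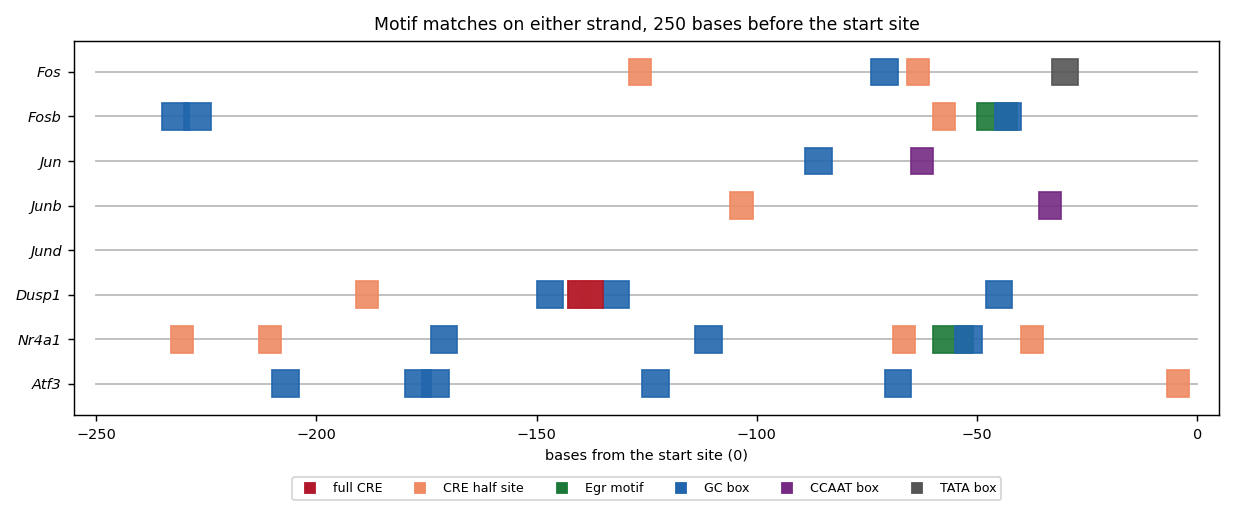
Motif matches in the 250 bases before the RefSeq start site of 8 members, on either strand. The horizontal axis gives bases from the start site and each row is 1 gene. Matches to the CRE-type letters lie on the rows of 6 members, and the row of Jund is empty.

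The genes lie on 8 chromosomes (mm10). Fos is at chr12:85473890-85477273, Fosb at chr7:19302696-19310051, Jun at chr4:95049034-95052222, Junb at chr8:84974484-84978718 and Jund at chr8:70698949-70700616. Egr1 is at chr18:34859823-34864984, Ier2 at chr8:84661331-84662852, Dusp1 at chr17:26505590-26508519, Nr4a1 at chr15:101266846-101274792 and Atf3 at chr1:191170296-191218039. In GENCODE M21, 4 members overlap another gene on the opposite strand. These are Jun with the antisense RNA Junos, Junb with Prdx2, Jund with the antisense RNA Gm11175 and Atf3 with the short RNA gene Gm24748. The labels name a directional library kit, but whether counting used it was not given in the sources used here, so reads of these pairs may not be told apart.

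Fos and Fosb encode the AP-1 subunits that cannot pair with themselves. Fos had 27.4, 30.1, 30.4, 24.7 and 18.8 CPM in Has2+/- OVA lungs and 40.3, 32.6, 28.6, 36 and 29.3 CPM in WT OVA lungs. In saline lungs Fos had 36.7, 54.5, 25.9 and 21.7 CPM in Has2+/- and 52.7, 48.9, 38.3, 23.8 and 53.6 CPM in WT. Both saline groups were wide and overlapped the OVA groups, and the 5 Has2+/- OVA libraries held the lowest group mean, 26.3 ± 4.78 CPM (SD, n = 5), against 43.5 ± 12.5 CPM in WT saline (n = 5). The fitted log2 fold change of Fos was -0.73 (SE 0.22) for Has2+/- OVA against WT saline and -0.39 (SE 0.22) for WT OVA against WT saline.

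Fosb, the paralogue of Fos, had 3.68, 4.80, 4.02, 3.6 and 3.64 CPM in Has2+/- OVA lungs and 5.09, 4.05, 3.89, 1.91 and 4.00 CPM in WT OVA lungs. Saline lungs had 11, 9.15, 5.17 and 5.64 CPM of Fosb in Has2+/- and 25.1, 8.09, 8.69, 4.56 and 6.76 CPM in WT. The Has2+/- OVA and Has2+/- saline libraries did not overlap, while WT OVA and WT saline libraries did, at 4.56 CPM in library 4. The mean of 10.6 ± 8.23 CPM in WT saline rests on library 1. Log2 fold changes of Fosb were -1.43 (SE 0.37) for Has2+/- OVA and -1.5 (SE 0.37) for WT OVA against WT saline, and without library 1 they came to -0.83 and -0.90.

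Jun, an AP-1 subunit that pairs with Fos proteins, was lowest in Has2+/- OVA lungs. It had 290, 276, 296, 227 and 252 CPM in Has2+/- OVA lungs and 326, 326, 339, 342 and 338 CPM in WT OVA lungs. Saline lungs had 412, 350, 444 and 315 CPM of Jun in Has2+/- and 421, 363, 412, 383 and 433 CPM in WT. Each Has2+/- OVA library lay below each library of the 3 other groups, and each WT OVA library lay below each WT saline library. WT OVA and Has2+/- saline overlapped, since Has2+/- saline library 9 had 315 CPM. The saline groups were not set apart either, as Has2+/- saline (315 to 444 CPM) held the whole range of WT saline (363 to 433 CPM). The log2 fold change of Jun was -0.58 (SE 0.09) for Has2+/- OVA against WT saline, -0.50 (SE 0.09) for Has2+/- OVA against Has2+/- saline, -0.27 (SE 0.09) for WT OVA against WT saline and -0.32 (SE 0.09) for Has2+/- OVA against WT OVA.

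Junb and Jund, the other Jun proteins, were not lowest in Has2+/- OVA. Junb had means of 109 ± 13.7 CPM in Has2+/- OVA, 123 ± 10.3 in WT OVA, 112 ± 27.9 in Has2+/- saline (n = 4) and 103 ± 20.01 in WT saline (n = 5 in the other groups), and neighbours in the order of levels overlapped. Jund had 125 ± 12.1, 146 ± 12.2, 117 ± 26.3 and 121 ± 9.93 CPM in Has2+/- OVA, WT OVA, Has2+/- saline and WT saline lungs, and Has2+/- saline library 7 had 77.3 CPM. For WT OVA against WT saline the log2 fold change was 0.25 (SE 0.14) for Junb and 0.27 (SE 0.11) for Jund, and for Has2+/- OVA against WT saline it was 0.08 (SE 0.14) and 0.05 (SE 0.11). Jun's share of the summed CPM of Jun, Junb and Jund, which is not scaled to gene length, was 53.4 ± 1.87% in Has2+/- OVA, 55.4 ± 2.21% in WT OVA, 62.6 ± 6.46% in Has2+/- saline and 64.2 ± 3.12% in WT saline.

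**Figure D2:**
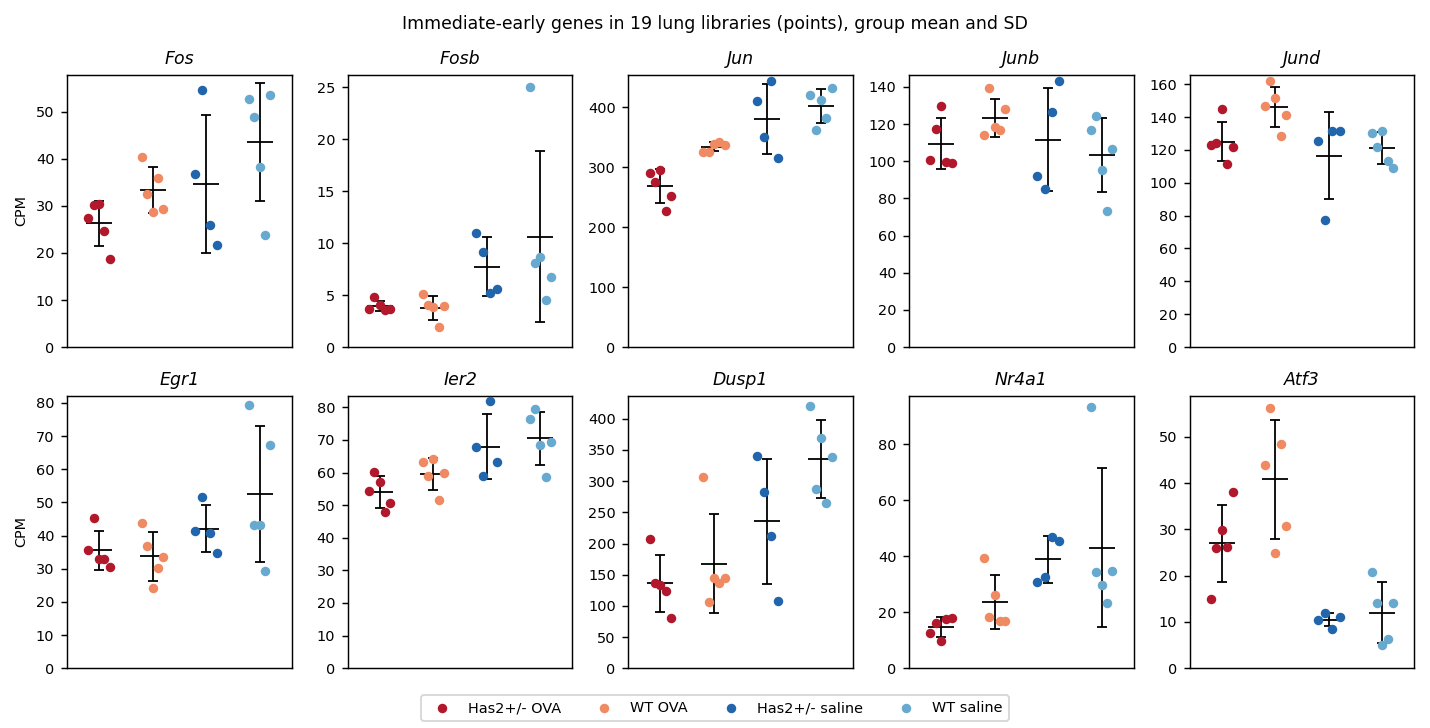
CPM of the 10 members in each library (points), with the group mean and SD (bars), in separate panels with linear axes from 0. Groups run from Has2+/- OVA through WT OVA and Has2+/- saline to WT saline. Jun shows the Has2+/- OVA points below all others, and Atf3 shows saline points mostly under the OVA points.

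Egr1 encodes a zinc finger factor and Ier2 a nuclear protein of the same early response. Egr1 ran from 30.7 to 45.4 CPM (median 33.0) in Has2+/- OVA, from 24.1 to 43.9 (33.7) in WT OVA, from 34.7 to 51.7 (41.0) in Has2+/- saline and from 29.2 to 79.4 (43.3) in WT saline. All 4 ranges of Egr1 overlapped, and log2 fold changes against WT saline were -0.57 (SE 0.21) in Has2+/- OVA and -0.64 (SE 0.21) in WT OVA. Ier2 had 54.4, 60.2, 57.1, 47.9 and 50.6 CPM in Has2+/- OVA lungs, against 76.5, 79.4, 68.5, 58.7 and 69.5 CPM in WT saline lungs. The ranges of Ier2 met only at library 4 of WT saline, at 58.7 CPM, and the log2 fold change was -0.39 (SE 0.10).

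Dusp1 encodes the phosphatase that removes phosphate from p38, JNK and ERK, so it acts as a brake on the kinases that induce it. It had 208, 136, 134, 123 and 81.1 CPM in Has2+/- OVA lungs and 307, 106, 144, 137 and 145 CPM in WT OVA lungs. Saline lungs had 340, 283, 213 and 107 CPM of Dusp1 in Has2+/- and 420, 287, 369, 265 and 338 CPM in WT. The Has2+/- OVA libraries all lay below the WT saline libraries, whereas WT OVA library 10 lay within the range of WT saline and Has2+/- saline library 9 within that of Has2+/- OVA. Log2 fold changes of Dusp1 were -1.30 (SE 0.29) for Has2+/- OVA against WT saline, -1.0 (SE 0.29) for WT OVA against WT saline and -0.79 (SE 0.30) for Has2+/- OVA against Has2+/- saline.

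Nr4a1 encodes an orphan nuclear receptor that is induced quickly in immune and vascular cells. It had 12.5, 16.1, 9.78, 17.7 and 18 CPM in Has2+/- OVA lungs and 39.5, 18.4, 26.0, 16.9 and 16.9 CPM in WT OVA lungs. Saline lungs had 30.6, 32.7, 46.7 and 45.5 CPM of Nr4a1 in Has2+/- and 93.2, 34.3, 29.8, 23.2 and 34.8 CPM in WT. Each Has2+/- OVA library lay below every saline library of both genotypes, whereas WT OVA overlapped WT saline. Log2 fold changes of Nr4a1 were -1.54 (SE 0.32) for Has2+/- OVA against WT saline, -1.39 (SE 0.34) for Has2+/- OVA against Has2+/- saline and -0.88 (SE 0.31) for WT OVA against WT saline. The WT saline mean of Nr4a1 also rests on library 1, and without it the changes against WT saline came to -1.05 for Has2+/- OVA and -0.39 for WT OVA.

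Atf3, a stress-induced factor of the ATF family that can repress its targets, ran the other way. It had 15, 26.0, 29.9, 26.1 and 38.1 CPM in Has2+/- OVA lungs and 43.9, 56.3, 25.0, 48.4 and 30.7 CPM in WT OVA lungs. Saline lungs had 10.4, 12, 8.51 and 11.1 CPM of Atf3 in Has2+/- and 20.9, 14.1, 4.93, 6.22 and 14 CPM in WT. All WT OVA libraries lay above all saline libraries, and Has2+/- OVA library 15, at 15 CPM, lay under WT saline library 1. The log2 fold change of Atf3 was 1.75 (SE 0.30) for WT OVA against WT saline, 1.36 (SE 0.33) for Has2+/- OVA against Has2+/- saline and 1.15 (SE 0.30) for Has2+/- OVA against WT saline.

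Over the 10 members and their 30 steps between neighbouring group means, the library ranges were apart in 2 and overlapped in 28. The 2 steps apart were Jun between Has2+/- OVA and WT OVA, and Fosb between Has2+/- OVA and Has2+/- saline. The highest group mean was that of WT saline for 7 members and of WT OVA for 3 (Junb, Jund and Atf3), and the lowest was that of Has2+/- OVA for 5.

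Calls were made with edgeR's quasi-likelihood test on all 19 libraries, at a p-value adjusted by Benjamini-Hochberg under 0.01 and a fold change above 1.2. In Has2+/- OVA against WT saline, 1 member was called higher (Atf3) and 5 lower (Fosb, Jun, Ier2, Dusp1 and Nr4a1), where 20.4% of all genes tested were called, 10.9% higher and 9.56% lower. For WT OVA against WT saline, Atf3 alone met the rule upwards, and Fosb and Dusp1 did so downwards, beside 21.9% of all genes (12% higher and 9.95% lower). These comparisons share the WT saline libraries. The comparison of Has2+/- OVA with Has2+/- saline had 1 call higher (Atf3) and 2 lower (Jun and Nr4a1), beside 18.2% of all genes, 10.5% higher and 7.72% lower. As the members were chosen with these contrasts known, nothing is read from the counts. The median log2 fold change of the members was -0.58, -0.33 and -0.37 in the same order of comparisons, and that of all genes 0.01, -0.001 and -0.01. It was negative for 7, 7 and 8 of the 10, beside 48.5%, 50.1% and 51.9% of all genes.

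Libraries did not overlap for 3 members lower and 0 higher in Has2+/- OVA against WT saline (Jun, Dusp1 and Nr4a1), beside 12.3% of all genes lower and 12.6% higher. In WT OVA against WT saline this held for 1 lower (Jun) and 1 higher (Atf3), beside 13.4% and 14.1% of all genes. Against Has2+/- saline, Has2+/- OVA had 3 lower (Fosb, Jun and Nr4a1) and 1 higher (Atf3), beside 7.33% and 11% of all genes.

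Several calls ended when 1 library was left out. In WT OVA against WT saline the call of Dusp1 ended with RLE factors, DESeq2 or a stricter filter, and in 14 of the 19 fits that left out 1 library. Among those left out were libraries 7, 8, 16, 17 and 18, which are in neither group compared. The call of Fosb ended without library 1, without library 13, without libraries 12 and 13 together, or with only the groups compared in the fit. In Has2+/- OVA against WT saline the call of Atf3 ended in 7 of 19 such fits, of Fosb in 5 and of Ier2 in 4, while Jun, Dusp1 and Nr4a1 were called in all. There Fosb also lost its call with only the groups compared in the fit, and Atf3 lost it without libraries 8, 9 and 19 together. Against Has2+/- saline, Nr4a1 and Atf3 each lost the call in 3 of 19, and both lost it without libraries 8, 9 and 19 together. That last fit kept only libraries 6 and 7 of Has2+/- saline.

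**Figure D3:**
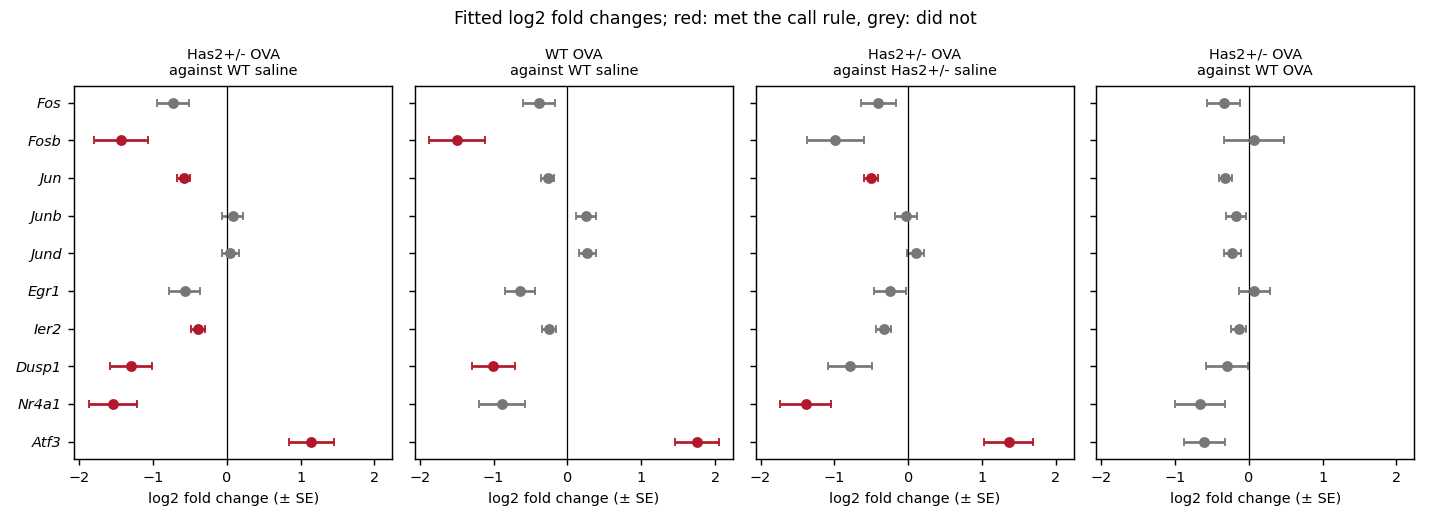
Fitted log2 fold change (points) and SE (bars) of the members in 4 comparisons. Red points met the call rule. Atf3 lies right of 0 against saline in 3 panels and left of 0 in Has2+/- OVA against WT OVA.

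Between the genotypes, 0 members were called in Has2+/- OVA against WT OVA by edgeR and 0 by DESeq2, beside 0% of all genes in edgeR and 8 genes in DESeq2, and 7.73% of all genes had an unadjusted p under 0.05. The log2 fold change was negative for 8 of the 10 members, beside 49% of all genes, with a median of -0.26, and the largest in size were Nr4a1 (-0.66, SE 0.34), Atf3 (-0.60, SE 0.28), Fos (-0.34, SE 0.23) and Jun (-0.32, SE 0.09). Jun was the 1 member whose libraries did not overlap, lower in Has2+/- OVA, where 0.842% of all genes did so in that direction and 1.07% in the other. For Has2+/- saline against WT saline, 0 members were called by edgeR and 0 by DESeq2, as were 0% of all genes in edgeR (6.94% at an unadjusted p under 0.05) and 1 gene in DESeq2, with a median of -0.19 and 9 of 10 members negative, beside 48.6% of all genes. This tally rests on single libraries, since 6 members were negative without WT saline library 1, where Fosb (0.15), Nr4a1 (0.34) and Atf3 (0.06) turned positive, and 7 without Has2+/- saline library 7, where Jund (0.10) and Ier2 (0.01) did. There, libraries did not overlap for 0 members, beside 0.869% of all genes higher and 0.835% lower. For the interaction of genotype and OVA, 0 members were called by edgeR and 0 by DESeq2, and 0% of all genes were, with 4.1% at an unadjusted p under 0.05. The interaction was negative for 7 of 10 members, beside 50.1% of all genes, and for 6 to 8 with 1 library left out. For Has2+/- OVA against WT OVA the 8 negative members became 7 to 10, and 7 without WT OVA library 10, where Dusp1 went to 0.04 (-0.29 with it).

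Both OVA comparisons within a genotype, Has2+/- OVA against Has2+/- saline and WT OVA against WT saline, use different libraries. There, 7 members were lower after OVA in both genotypes, 2 were higher in both (Jund and Atf3), and Junb differed in direction. The 7 were lower in both in each fit that left out 1 library. Jund in Has2+/- lungs had a log2 fold change of 0.10 (SE 0.12), which came to -0.05 without Has2+/- saline library 7, and Junb, at -0.03 in Has2+/- lungs, turned positive without library 8, 9, 15, 18 or 19. Atf3 was the 1 member called in both, of 5 called in either.

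The 38 other immediate-early genes were written down from general knowledge, but with earlier results of these data known, and all passed the filter. Their calls and p-values, like those of the lists below, are therefore given as a description. In Has2+/- OVA against WT saline, 2 rose and 15 fell by the same test, and in WT OVA against WT saline 3 rose and 6 fell. In Has2+/- OVA against Has2+/- saline 4 rose and 8 fell. Their median log2 fold change was -0.35, -0.17 and -0.29. In the same order, 20.4%, 21.9% and 18.2% of all genes were called. With the mean of the heat shock genes as a covariate, Has2+/- OVA against WT saline had 2014 calls over all genes, not 2964. Of the 38 other immediate-early genes, 9 in place of 17 were called there. The heat shock genes were themselves lower in that comparison, so the covariate can take up part of the group difference. Between the OVA groups, Has2+/- against WT, 0 were called by edgeR and 0 by DESeq2, 8 had an unadjusted p under 0.05, and 29 of 38 were negative, with a median of -0.17.

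Ctgf and Cyr61, matricellular proteins of the YAP and stretch response, fell in both OVA groups. Ctgf fell to 84.1 ± 14.2 CPM in WT OVA lungs, against 195 ± 39.1 CPM in WT saline (log2 fold change -1.21, SE 0.18, edgeR adjusted p = 3.12e-05), and to 85.7 ± 11.7 CPM in Has2+/- OVA (-1.19, SE 0.18, edgeR adjusted p = 4.18e-05). Cyr61 fell to 53.4 ± 15 CPM in WT OVA, against 130 ± 51.0 CPM in WT saline (-1.29, SE 0.21, edgeR adjusted p = 6.72e-05).

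Egr2, a zinc finger relative of Egr1 that is expressed by macrophages, rose. It had 24.1 ± 3.88 CPM in WT OVA against 12.8 ± 3.84 CPM in WT saline (log2 fold change 0.91, edgeR adjusted p = 4.77e-04), and 21.3 ± 3.86 CPM in Has2+/- OVA against 7.96 ± 1.0 CPM in Has2+/- saline (1.42, edgeR adjusted p = 2.58e-05). Per1, a clock gene that glucocorticoids also induce, fell to 119 ± 49.5 CPM in Has2+/- OVA, against 335 ± 21.4 CPM in WT saline (-1.5, SE 0.20, edgeR adjusted p = 9.29e-06), and to 174 ± 18.3 CPM in WT OVA (-0.94, edgeR adjusted p = 8.19e-04). Cebpd, a factor of the acute-phase response, fell to 51.6 ± 13.5 CPM in Has2+/- OVA, against 132 ± 20.8 CPM in WT saline (-1.35, edgeR adjusted p = 2.44e-05). Over the 38, 26 were lower after OVA in both genotypes, 8 were higher in both and 4 differed in direction.

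**Figure D4:**
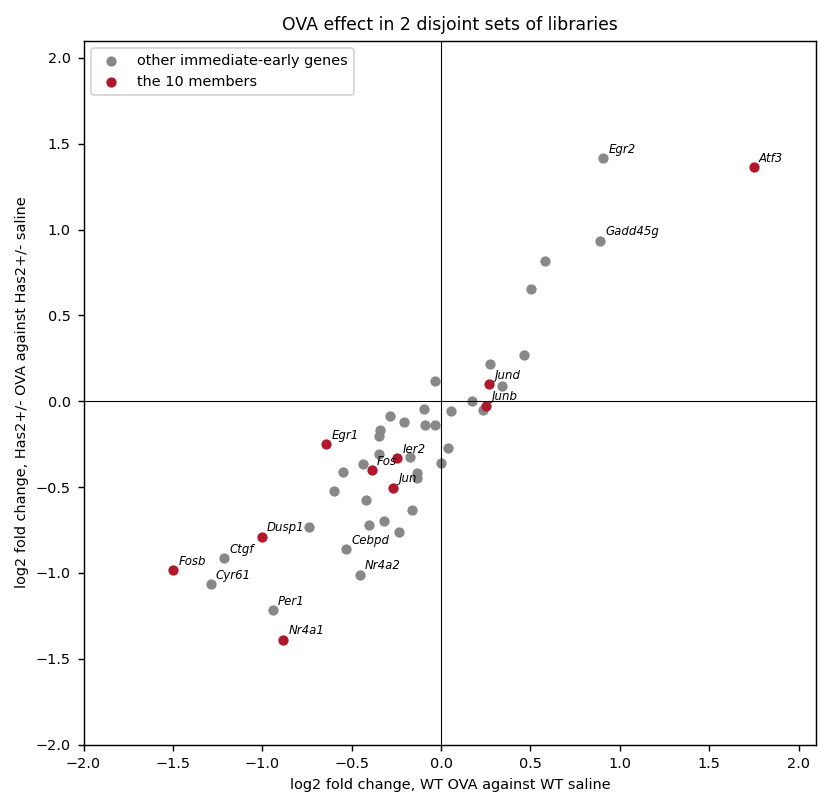
Log2 fold change after OVA in WT (horizontal axis) and in Has2+/- lungs (vertical axis), for the 10 members (red) and 38 other immediate-early genes (grey). The axes share no library. Of the members, 7 lie in the lower left and 2 in the upper right.

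Among 20 genes of the pathways that reach these promoters, 3 rose in WT OVA against WT saline (Mkl1, Map2k2 and Rps6ka1) and 0 fell. Of all genes, 21.9% were called there. In Has2+/- OVA against WT saline 0 of the 20 were called by edgeR (7 had an unadjusted p under 0.05), beside 20.4% of all genes. In Has2+/- OVA against Has2+/- saline 2 of the 20 rose (Mkl1 and Map2k1), beside 18.2% of all genes called. Mkl1, a coactivator of serum response factor, rose to 99.6 ± 7.81 CPM in WT OVA, against 75.8 ± 4.05 CPM in WT saline (log2 fold change 0.39, edgeR adjusted p = 9.35e-04).

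Of 10 other dual-specificity phosphatase genes that passed the filter, of 11 listed, 0 rose and 4 fell in WT OVA and 5 fell in Has2+/- OVA, each against WT saline. In the same order, 9.95% and 9.56% of all genes were called lower. Dusp7 fell to 94.6 ± 6.31 CPM in WT OVA, against 153 ± 11.8 CPM in WT saline (-0.69, edgeR adjusted p = 2.44e-05). Dusp16, which acts on JNK, fell to 65.8 ± 5.23 CPM in Has2+/- OVA, against 94.2 ± 3.06 CPM in WT saline (-0.52, edgeR adjusted p = 9.09e-06).

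Of 18 genes for AP-1 and ATF partners, 1 rose (Batf) and 2 fell (Jdp2 and Maff) in WT OVA against WT saline, and 2 fell (Jdp2 and Maff) in Has2+/- OVA against WT saline. Shares of all genes called in either direction were 21.9% and 20.4%. Batf, a partner of Jun proteins in lymphocytes, rose to 12.1 ± 1.85 CPM in WT OVA, against 7.05 ± 2.43 CPM in WT saline (0.78, edgeR adjusted p = 0.00778). Jdp2, a partner that represses AP-1 targets, fell to 34.2 ± 4.50 CPM in Has2+/- OVA, against 55.8 ± 3.49 CPM in WT saline (-0.71, edgeR adjusted p = 8.21e-05).

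Libraries of a group differed together in several members. Within WT saline, library 4 held the lowest value of 7 members and library 1 the highest of 5, and within WT OVA library 10 held the highest of 5. With each library set against its group mean on the log2 scale, 37 of the 45 pairs of members correlated positively over the 19 libraries, and 11 had a Pearson r above 0.5. The pair Fos and Egr1 had the highest r, 0.75, followed by Fosb and Egr1 (0.67) and Fos and Dusp1 (0.63). Junb correlated with Ier2 (0.61) and Jund (0.60), and had r = -0.36 with Dusp1. The most negative pair was Fos and Jund, at r = -0.40, and -0.45 without library 1. Fosb and Nr4a1 had r = 0.60, and 0.28 without library 1. These values describe libraries that share depth and extraction within each library.

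**Figure D5:**
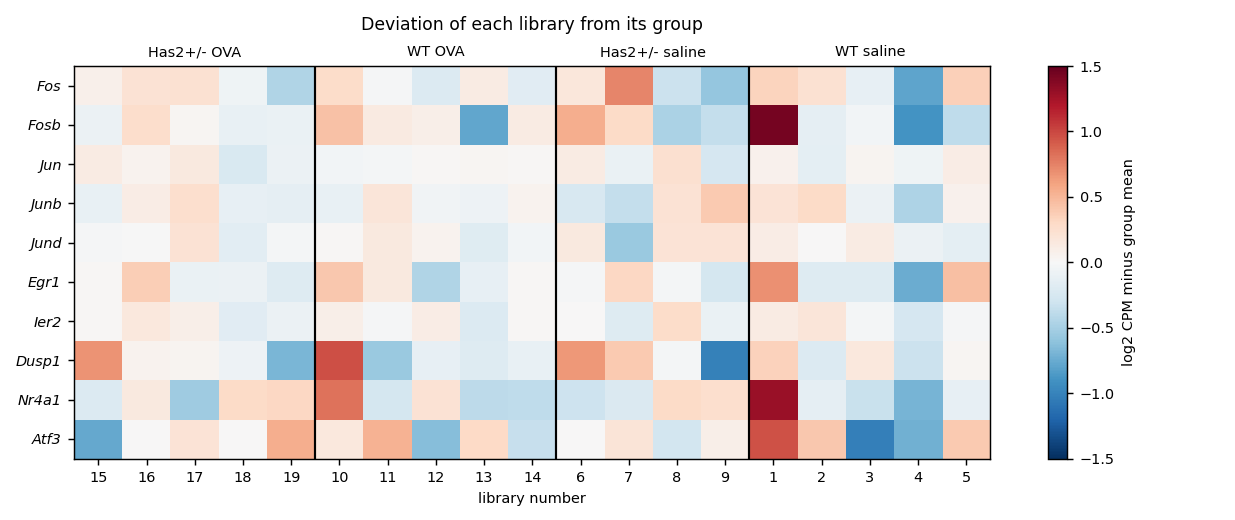
Log2 CPM of each member in each library minus the mean of its group, with libraries in columns by group. Red is above and blue below the group mean. In WT saline, library 1 is red and library 4 blue for most members.

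The 6 other genes whose centred profile was most like the mean of the members were Nhsl1 (r = 0.91), Papln (0.82), Apold1 (0.77), H1f0 (0.77), Hint3 (0.76) and Ccl28 (0.75), over the 19 libraries. Without library 1, r came to 0.87, 0.77, 0.66, 0.70, 0.73 and 0.68 in the same order. Group means ran from 1.97 to 3.84 CPM for Apold1 and from 1.70 to 2.91 CPM for Ccl28.

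Some markers of cell types and other gene programmes also differed between OVA and saline lungs. Of 8 endothelial markers, 4 fell in each OVA group against WT saline, beside 9.56% of all genes in Has2+/- OVA and 9.95% in WT OVA. In WT OVA, 1 of the 8 had a positive log2 fold change. The 8 summed to 3234 to 4230 CPM in Has2+/- OVA and 3419 to 4491 in WT OVA. Saline sums were 3484 to 5444 CPM in Has2+/- and 4423 to 5307 in WT. In WT OVA against WT saline, edgeR called 0 of 5 T cell markers and 0 of 5 smooth muscle markers (1 of each had an unadjusted p under 0.05). It called 1 of 6 fibroblast markers, lower. In Has2+/- OVA against Has2+/- saline, 3 of the 5 smooth muscle and 2 of the 6 fibroblast markers were called lower. Of all genes, 7.72% were called lower there. In that comparison 0 of the 5 T cell markers were called, and 4 had an unadjusted p under 0.05. Macrophage markers summed to 2479 to 4673 CPM in Has2+/- OVA and 2793 to 5160 in WT OVA, against 253 to 444 in Has2+/- saline and 268 to 840 in WT saline. The macrophage sum was mostly Chil3, with a mean of 3189 CPM in WT OVA and 165 in WT saline. In WT OVA against WT saline, 4 of 5 tested macrophage markers rose, Mrc1 by a log2 fold change of 0.65. The 5 B and plasma cell markers all rose, with sums of 1660 to 2579 CPM in Has2+/- OVA and 1848 to 2744 in WT OVA, against 95.6 to 199 in Has2+/- saline and 91.4 to 161 in WT saline. Their sum was mostly Jchain, with a mean of 2097 CPM in WT OVA and 63.8 in WT saline. In whole lung, a change in the number of cells of a type and one in RNA per cell cannot be told apart. The part of these cell types in the members' differences was not tested.

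The 15 clock genes summed to 750 to 1543 CPM in Has2+/- OVA and 655 to 888 in WT OVA, against 1271 to 1967 in Has2+/- saline and 1436 to 1790 in WT saline, and the value of 1543 CPM was that of library 19. Of the clock genes, 4 rose and 7 fell in WT OVA, and 3 rose and 5 fell in Has2+/- OVA, each against WT saline. Shares of all genes called in these comparisons were 21.9% and 20.4%. The 12 heat shock genes summed to 598 to 1637 CPM in Has2+/- OVA, 781 to 3083 in WT OVA, 1131 to 2508 in Has2+/- saline and 1014 to 3158 in WT saline, and 6 fell in Has2+/- OVA against WT saline while 0 were called by edgeR in WT OVA, where 1 had an unadjusted p under 0.05. Of 12 glucocorticoid-responsive genes, 1 rose and 5 fell in Has2+/- OVA and 2 rose and 3 fell in WT OVA, each against WT saline. Per1, Errfi1 and Sgk1 are in both this list and that of the other immediate-early genes. The hour at which lungs were taken was not given in the sources used here. The part of these programmes in the members' differences was not tested. With the heat shock mean as a covariate, 5 members were called in each OVA group against WT saline. In Has2+/- OVA the call of Atf3 ended, at a log2 fold change of 0.85 against WT saline and 1.16 against Has2+/- saline, where Fosb gained one. In WT OVA against WT saline, Egr1 and Nr4a1 gained a call. The heat shock genes were themselves lower against WT saline, 12 of 12 in Has2+/- OVA (median log2 fold change -0.87) and 11 of 12 in WT OVA (-0.33). The covariate can therefore take up part of the group difference, and the 2 cannot be told apart in this fit.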

How the data were processed

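Lung RNA was sequenced by the authors as paired reads of 36 bases, mapped to mm10 and counted per gene in CLC Genomics Workbench. The labels name kits for rRNA depletion and directional libraries, while the design text names a stranded mRNA kit and the difference could not be settled. The deposited counts were used as the authors gave them, and 38 columns of scaled or transformed values were not used, nor were the authors' fold changes and p-values. Counts were fitted with edgeR 4.0.16 in R 4.3.3 (TMM factors, filterByExpr with 10 counts, 15 in total and a share of 0.7, a mean for each of 4 groups, 15 residual degrees of freedom, common coefficient of biological variation 0.138). Tests were two-sided and adjusted by Benjamini-Hochberg over 14495 genes. SE were derived from the test statistic. Centred log2 values used 0.5 CPM as pseudocount. The procedure was tested on simulated data.

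The members and lists were chosen with earlier results of these data known. Named were all members, up to 4 genes of smallest p from each other list in each comparison, and the 6 genes of most similar profile. The list of AP-1 and ATF partners was summarised over 18 genes, and 1 other gene of it is not reported here. Deposited starts count from 0 and were raised by 1, after which both ends matched GENCODE M21 for 8 of 10 members. Alternatives were RLE factors, other filters, only the compared groups, DESeq2 1.42.0, an adjusted p under 0.05, each library left out, 2 sets of libraries left out and a heat shock covariate. Figures were drawn with matplotlib 3.10.9.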

Additional observations from a re-analysis of the deposited data

Results flagged for a closer look

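In 4 of the 40 sets of 1 member and 1 group, a library stood far from the others, where chance gives about 1 in 20, or 2 sets. Fosb had 25.1 CPM in WT saline library 1, with the next library at 8.69 CPM. Nr4a1 had 93.2 CPM in the same library, with the next at 34.8 CPM. Dusp1 had 307 CPM in WT OVA library 10, with the next at 145 CPM. Jund had 77.3 CPM in Has2+/- saline library 7, with the next at 126 CPM. The cause was not tested.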

How the results depend on the processing

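In Has2+/- OVA against WT saline, Jun, Dusp1 and Nr4a1 were called under every alternative run. The 6 calls of members there ranged from 3 to 7 with 1 library left out, 3 without library 18 or 19. In WT OVA against WT saline, Atf3 was called under every alternative run, Dusp1 was lost under DESeq2, RLE factors and the stricter filter, and Fosb with only the groups compared. With the heat shock covariate or without libraries 8, 9 and 19, Atf3 was lost in both comparisons of Has2+/- OVA with saline. In WT OVA against WT saline the 3 calls became 6 at an adjusted p under 0.05 and 5 with the heat shock covariate. They became 1 without libraries 12 and 13, and ranged from 1 to 4 with 1 library left out (1 without library 1 or 13). The 3 calls in Has2+/- OVA against Has2+/- saline ranged from 1 to 4, 1 without library 8. Calls among the other immediate-early genes went to 18 at an adjusted p under 0.05 in WT OVA against WT saline (9 in the reported fit), and to 9 with the heat shock covariate in Has2+/- OVA against WT saline (17). Over all genes, calls went to 4367 (3175 in the reported fit) and to 2014 (2964) in the same order. The cause was not tested. Of 1670 values of single members under an alternative, 1662 moved by less than the spread between libraries, 8 moved by more, and 0 called values changed sign. The tally includes the adjusted p under 0.05, which reuses the reported fit and cannot move a value. It also includes fits that left out a library of neither group compared, and the yardstick is a full SD within groups. Small moves were thus largely set in advance, and the tally does not measure robustness. Without library 1, Has2+/- saline against WT saline turned positive for Fosb (0.15, against -0.44 with it), Nr4a1 (0.34, against -0.15) and Atf3 (0.06, against -0.22), and the interaction of Fosb went to -0.08 (0.51 with it). Without libraries 8, 9 and 19, Junb went to -0.23 in Has2+/- saline against WT saline (0.11 with them), to 0.34 in Has2+/- OVA against Has2+/- saline (-0.03) and to 0.08 in the interaction (-0.28). Only libraries 6 and 7 of Has2+/- saline remain in that fit. No paired analysis was possible because the columns carry no replicate number. With 11 reads in 1 library, Fosb is the member that depth limits most.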
